A study of Mus musculus with 12 samples.

Results

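Newborn mouse epidermis carrying floxed Llgl1 and Llgl2 was compared with and without an additional floxed Trp53 allele. The comparison set 3 L1L2p53cKO libraries (K14-Cre with Llgl1/2 flox/flox and Trp53 +/flox) against 3 L1L2cKO libraries (K14-Cre with Llgl1/2 flox/flox). These are 6 of the 12 RNA-seq libraries of the series and were chosen by their genotype labels. The other libraries are 3 of p53cKO (K14-Cre with Trp53 +/flox) and 3 of Control (K14-Cre alone). All 12 libraries came from newborn skin epidermis of mice with K14-Cre, which drives Cre recombinase from a keratin 14 promoter active in basal keratinocytes, so melanocytes, immune cells and dermal cells kept intact alleles. Both compared groups shared the floxed Llgl1 and Llgl2 alleles and differed by the Trp53 allele, which was heterozygous, so recombined cells of L1L2p53cKO kept an intact copy of Trp53.

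Trp53 encodes p53, a transcription factor that stressed or damaged cells use to switch on cell cycle inhibitors such as Cdkn1a, genes of apoptosis and its own ubiquitin ligase Mdm2. Llgl1 and Llgl2 are the mammalian homologues of the Drosophila gene lethal giant larvae, which sets cell polarity and acts as a tumour suppressor in the fly. Newborn epidermis includes hair follicles, in which matrix cells give rise to a shaft of hair keratins and keratin-associated proteins and to an inner root sheath built from trichohyalin and its own keratins. Sebaceous glands grow from the upper follicle and make sebum from wax esters, triglycerides and cholesterol esters.

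Hair follicle genes were prominent among the lower genes of the comparison, and the promoters below are those of 6 such genes that DESeq2 called, 4 from the inner root sheath (Krt25, Krt28, Krt73 and Tchh) and 2 from the hair shaft (Krt33b and Krt82). Each runs from 250 bases before to 50 bases after the start of the gene, on the strand of the gene, from RefSeq on GRCm38.p6. Capitals mark TATAAA, the core of the TATA box, and CTTTGA or its reverse complement TCAAAG, the core recognised by the LEF1 and TCF factors of the Wnt pathway.
Krt25, chr11:99322902-99323201, minus strand: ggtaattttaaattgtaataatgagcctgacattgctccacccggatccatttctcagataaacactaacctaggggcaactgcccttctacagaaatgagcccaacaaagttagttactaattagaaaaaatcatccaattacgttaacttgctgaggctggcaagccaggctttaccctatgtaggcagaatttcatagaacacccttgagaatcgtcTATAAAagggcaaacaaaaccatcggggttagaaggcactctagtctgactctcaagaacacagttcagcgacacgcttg
Krt28, chr11:99374854-99375153, minus strand: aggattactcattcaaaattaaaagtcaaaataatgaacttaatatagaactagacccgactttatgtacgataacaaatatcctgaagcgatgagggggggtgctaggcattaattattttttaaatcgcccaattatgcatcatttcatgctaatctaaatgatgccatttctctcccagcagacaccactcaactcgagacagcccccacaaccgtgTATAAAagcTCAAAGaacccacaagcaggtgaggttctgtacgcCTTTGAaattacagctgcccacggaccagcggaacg
Krt73, chr15:101802311-101802610, minus strand: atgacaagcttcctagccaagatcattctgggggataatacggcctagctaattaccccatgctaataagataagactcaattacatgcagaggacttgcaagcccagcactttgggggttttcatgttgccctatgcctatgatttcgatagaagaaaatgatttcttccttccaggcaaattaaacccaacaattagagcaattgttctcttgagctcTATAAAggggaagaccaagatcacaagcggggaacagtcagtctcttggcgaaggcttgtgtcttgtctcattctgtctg
Tchh, chr3:93442080-93442379, plus strand: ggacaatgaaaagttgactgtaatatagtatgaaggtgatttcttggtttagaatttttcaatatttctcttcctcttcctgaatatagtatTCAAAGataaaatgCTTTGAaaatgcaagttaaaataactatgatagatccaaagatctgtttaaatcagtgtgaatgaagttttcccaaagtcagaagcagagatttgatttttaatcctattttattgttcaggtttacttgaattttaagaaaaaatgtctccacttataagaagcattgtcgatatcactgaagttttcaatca
Krt33b, chr11:100029819-100030118, minus strand: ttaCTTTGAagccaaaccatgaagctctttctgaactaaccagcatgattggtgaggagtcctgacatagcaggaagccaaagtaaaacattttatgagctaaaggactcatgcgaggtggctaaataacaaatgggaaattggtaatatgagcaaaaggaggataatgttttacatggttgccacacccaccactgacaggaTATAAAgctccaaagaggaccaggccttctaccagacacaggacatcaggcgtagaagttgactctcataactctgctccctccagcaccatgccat
Krt82, chr15:101550610-101550909, minus strand: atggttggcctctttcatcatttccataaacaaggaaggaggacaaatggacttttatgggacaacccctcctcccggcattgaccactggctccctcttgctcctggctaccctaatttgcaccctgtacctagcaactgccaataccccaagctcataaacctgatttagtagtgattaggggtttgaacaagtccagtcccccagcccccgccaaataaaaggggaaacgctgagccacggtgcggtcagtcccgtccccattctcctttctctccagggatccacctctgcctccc

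TATAAA began 30 bases before the start in each of Krt25, Krt28 and Krt73, and 47 bases before it in Krt33b. CTTTGA was present on either strand in Krt28, Krt33b and Tchh, and neither motif overlapped the other. The window of Krt82 held neither. Of the 11 inner root sheath and hair shaft keratin genes that DESeq2 called, 9 had a promoter in the RefSeq table, of which 5 held TATAAA and 3 held CTTTGA on either strand. Among all 32851 promoters of that set, 13.6% held TATAAA and 16.0% held CTTTGA. A match describes the letters only.

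Trp53 transcript was lower in L1L2p53cKO, at 65.5% of the L1L2cKO mean. Trp53 (ENSMUSG00000059552, chromosome 11, 69580359 to 69591873, GRCm38) had 98.3, 67.8 and 65.9 CPM (read counts normalised to library size, with sizes scaled by the trimmed mean of M values) in L1L2p53cKO 1 to 3, against 120.5, 122.1 and 111.9 CPM in L1L2cKO 1 to 3. The groups did not overlap, but L1L2p53cKO 1 stood at 83.2% of the L1L2cKO mean, above the 57.4% and 55.8% of the other libraries of its group. The log2 fold change was -0.61 (95% interval -1.12 to -0.10) and missed the threshold of 0.05 in edgeR's quasi-likelihood test with Benjamini-Hochberg adjustment (adjusted p = 0.876). An exact two-sided permutation test gave p = 0.1, the smallest value possible with 3 against 3 libraries. Counts per gene do not resolve the floxed exons, so these levels do not measure recombination. Without L1L2p53cKO 1 the log2 fold change was -0.82.

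Both Llgl genes overlapped between the groups that share their floxed alleles. Llgl2 had 6.12, 12.4 and 7.03 CPM in L1L2p53cKO, against 7.63, 7.73 and 9.69 CPM in L1L2cKO, and 65.4 to 109.9 CPM in Control. Llgl1 had 187, 248 and 211 CPM in L1L2p53cKO, against 280, 218 and 269 CPM in L1L2cKO. Every library of both groups lay above the Control level of Llgl1, at 115 to 173 CPM. The log2 fold changes between L1L2p53cKO and L1L2cKO were 0.03 for Llgl2 and -0.25 for Llgl1 (edgeR adjusted p = 1.0 for each). Llgl1 overlaps another annotated gene, and the strand setting of the counting is not given in the sources used here.

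The 6 libraries held 11681341 to 14509507 assigned counts, and the biological coefficient of variation over the 12 libraries was 23.8%. By X-linked and Y-linked transcripts replicate 1 of both groups was female and replicates 2 and 3 were male. L1L2p53cKO 1, the library with the higher Trp53, was thus also the only female library of its group. Summed basal keratinocyte markers (Krt5, Krt14, Trp63, Itga6, Itgb4 and Col17a1) ranged from 15400 to 18900 CPM in L1L2p53cKO and from 13700 to 16000 CPM in L1L2cKO, so the labelled tissue had its defining markers. In the other groups p53cKO 3 and Control 3 stood apart, with fibroblast markers (Col1a1, Col3a1, Pdgfra and Dcn) at 117 and 125 CPM against 22.4 to 48.3 CPM in the remaining 4 libraries, and the library labelled p53cKO 3 had Trp53 at 115 CPM, within the Control range of 108.9 to 130.5 CPM.

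**Figure D1:**
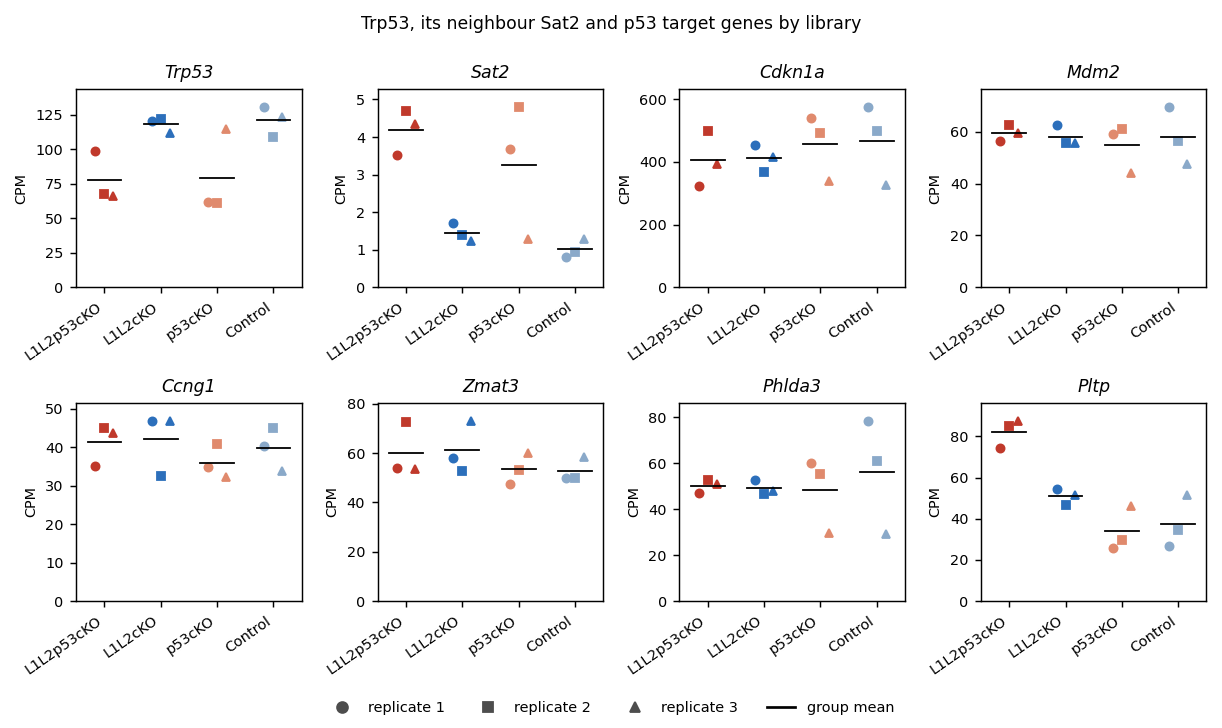
CPM of Trp53, of its neighbour Sat2 and of 6 p53 target genes in the 12 libraries, with a point for each library (circle, square and triangle for replicates 1, 2 and 3) and a line at the group mean. Trp53, Sat2 and Pltp separate L1L2p53cKO from L1L2cKO, and the 5 other target genes overlap between these groups.

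Sat2, a gene of the spermidine and spermine acetyltransferase family that lies 30151 bases from Trp53 on chromosome 11, was higher in L1L2p53cKO. It had 3.53, 4.70 and 4.35 CPM in L1L2p53cKO, against 1.72, 1.39 and 1.23 CPM in L1L2cKO. The groups did not overlap, and L1L2p53cKO 1 was high together with the rest of its group. The log2 fold change was 1.52 (95% interval 0.63 to 2.41) and was not called by edgeR (adjusted p = 0.668) or by DESeq2 (adjusted p = 0.12). In the pair without floxed Llgl genes Sat2 had 3.69 and 4.80 CPM in p53cKO 1 and 2 and 1.28 CPM in the library labelled p53cKO 3, against 0.818, 0.935 and 1.29 CPM in Control. The library labelled p53cKO 3 thus sat with Control for both Sat2 and Trp53.

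Within 5 Mb of Trp53 141 other genes were tested, of which 0 were called by edgeR. Of these, 10 were higher and 4 lower without overlap, meaning that all 3 libraries of a group lay above all 3 of the other, as was the case for 5.84% (higher) and 5.13% (lower) of all genes.

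Over all genes edgeR called 0 of 14582 genes tested (0%) at an adjusted p below 0.05, and the smallest adjusted p was 0.668. At an unadjusted p below 0.05 there were 272 higher genes (1.87%) and 475 lower genes (3.26%). With a replicate block in p53cKO and Control edgeR called 1 gene (Cyp24a1) and 1198 genes had an unadjusted p below 0.05. The median log2 fold change of all genes was -0.000622. Groups did not overlap for 852 higher genes (5.84%) and 748 lower genes (5.13%). DESeq2, which was run as the alternative tool, called 51 of 13845 genes, 4 higher (0.0289%) and 47 lower (0.339%). In 47 of the 51 the groups did not overlap, and 17 of the 47 lower ones belong to the lists of hair shaft, inner root sheath, hair matrix and sebaceous gland genes.

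The DESeq2 calls rested on single libraries. Their number was 6 without L1L2p53cKO 2, 1 without L1L2p53cKO 3 and 3 without L1L2cKO 2, which left 4, 1 and 1 of the 51 called. It was 169 without L1L2p53cKO 1, 80 without L1L2cKO 1 and 94 without L1L2cKO 3, with 45, 45 and 42 of the 51 among them. With both female libraries left out it was 216, and with p53cKO 3 and Control 3 left out it was 140, each with 47 of the 51 among them. In what follows calls are those of DESeq2 with all 12 libraries unless edgeR is named, and the edgeR adjusted p of a gene called this way was at least 0.668.

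**Figure D2:**
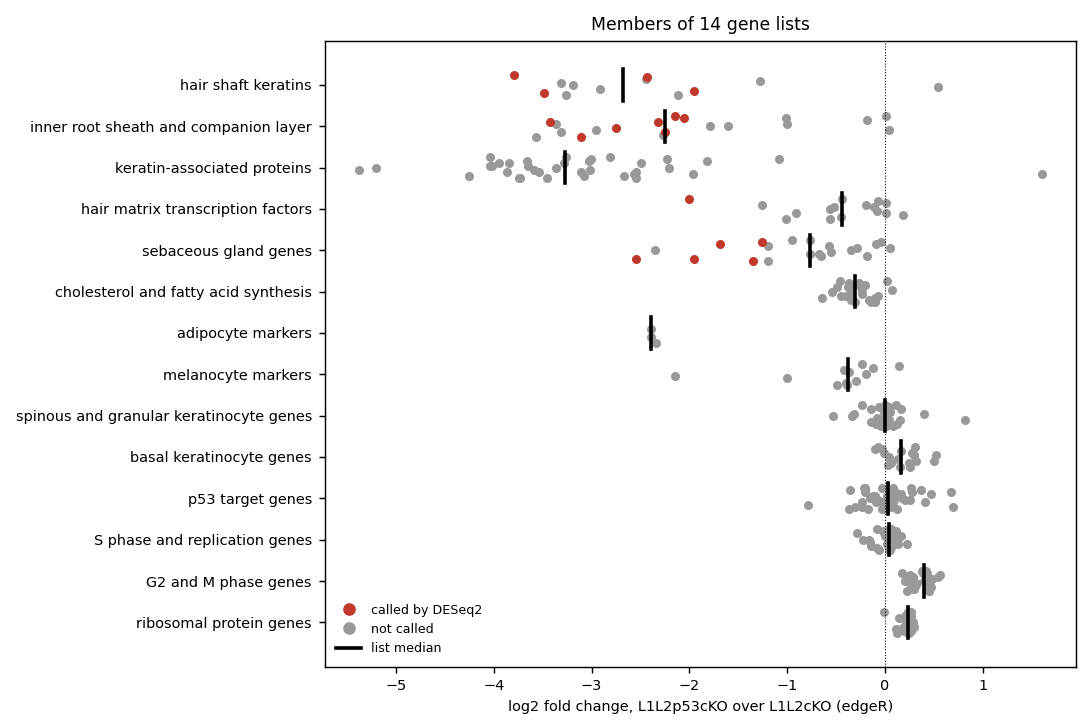
Log2 fold change (L1L2p53cKO over L1L2cKO, from edgeR) of each tested member of 14 gene lists, with a point per gene, red where DESeq2 called it, and a line at the list median. Keratin-associated proteins, hair shaft keratins, adipocyte markers (3 tested) and inner root sheath genes lie lowest, with medians of -3.27, -2.68, -2.39 and -2.25. The p53 target genes lie around 0 with a median of 0.03.

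Known p53 target genes as a list lay at the level of all genes. Of 50 listed genes 49 were tested, 29 were higher and 20 lower, 5 and 3 of them without overlap (5.84% and 5.13% of all genes), and 0 were called by edgeR or DESeq2. Their median log2 fold change was 0.03. Cdkn1a, which encodes the cyclin-dependent kinase inhibitor p21, had 324, 499 and 394 CPM in L1L2p53cKO, against 454, 366 and 415 CPM in L1L2cKO. The groups overlapped, with a log2 fold change of -0.02 (95% interval -0.54 to 0.50). Mdm2, the ubiquitin ligase that degrades p53, had 56.4, 62.4 and 59.7 CPM in L1L2p53cKO, against 62.6, 55.5 and 55.6 CPM in L1L2cKO. It overlapped as well, with a log2 fold change of 0.04 (95% interval -0.30 to 0.38). Both intervals overlap that of Trp53 itself.

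Other established targets were equally close. Ccng1, which encodes cyclin G1, had 35.1, 44.9 and 43.8 CPM in L1L2p53cKO, against 46.9, 32.6 and 46.9 CPM in L1L2cKO. Zmat3, an RNA-binding protein gene, had 54.0, 72.6 and 53.4 CPM in L1L2p53cKO, against 58.1, 52.8 and 73.0 CPM in L1L2cKO. Phlda3, an inhibitor of AKT signalling, had 46.8, 52.5 and 51.1 CPM in L1L2p53cKO, against 52.6, 46.7 and 47.8 CPM in L1L2cKO. All 3 overlapped, with log2 fold changes of -0.03, -0.03 and 0.03 in that order, and the interval of Phlda3 was wide (-0.66 to 0.72). Trp53inp1, which encodes a p53-induced nuclear protein, varied within groups, with 54.8, 70.4 and 232 CPM in L1L2p53cKO, against 145, 71.0 and 60.7 CPM in L1L2cKO, and its 95% interval was -0.83 to 1.57 on the log2 scale.

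The targets with the smallest p lay on both sides of 0. Pltp, which encodes phospholipid transfer protein, had 74.4, 85.1 and 87.5 CPM in L1L2p53cKO, against 54.4, 46.9 and 51.7 CPM in L1L2cKO. It was higher without overlap, with a log2 fold change of 0.69 (edgeR adjusted p = 0.793). Dcxr, a carbonyl reductase gene, had 11.7, 13.7 and 13.8 CPM in L1L2p53cKO, against 10.7, 8.97 and 9.86 CPM in L1L2cKO, and was also higher without overlap (log2 fold change 0.41). Sulf2, which removes sulfate groups from heparan sulfate, had 107.5, 109.6 and 97.4 CPM in L1L2p53cKO, against 148.5, 147.7 and 109.9 CPM in L1L2cKO. It was lower without overlap (log2 fold change -0.37), and so was Notch1, a receptor that drives keratinocyte differentiation (-0.23). Ak1 (0.47), Tigar (-0.31), Eda2r (-0.78) and Plk2 (-0.21) overlapped between the groups. The remaining members without overlap, chosen after their values were seen, were Fas, Ckap2 and Psrc1, which were higher, and Tap1, which was lower. Pltp, Sulf2, Notch1 and Tigar overlap other annotated genes.

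The p53 relatives Trp63, the master factor of stratified epithelia, and Trp73 overlapped between the groups, with log2 fold changes of -0.08 and 0.02. Among 19 tested genes of the p53 family and its regulators 7 were higher and 12 lower, with a median of -0.05. Genes of DNA damage response and repair were split 13 higher and 12 lower of 25, with a median of 0.02. Of 23 tested apoptosis regulators 15 were higher and 8 lower, with a median of 0.055, and of 14 tested cell cycle inhibitor and senescence genes 7 were higher and 7 lower, with a median of 0.01. None of these 4 lists had a member called by edgeR or DESeq2.

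Inner root sheath and companion layer genes were lower in L1L2p53cKO. Of 19 tested 17 were lower, 12 of them without overlap (5.13% of all genes), and DESeq2 called 7 lower, beside 0.339% of all genes (Krt25, Krt26, Krt28, Krt73, Tchh, Padi3 and Dsg4). The median log2 fold change was -2.25. Krt28, a type I keratin of the sheath, had 34.4, 12.9 and 15.2 CPM in L1L2p53cKO, against 75.9, 161 and 40.5 CPM in L1L2cKO. The groups did not overlap, with a log2 fold change of -2.15 (95% interval -3.24 to -1.06, DESeq2 adjusted p = 0.00419). Krt26, another type I sheath keratin, had 6.04, 1.71 and 1.26 CPM in L1L2p53cKO, against 22.5, 61.4 and 14.3 CPM in L1L2cKO. Its log2 fold change was -3.43 (DESeq2 adjusted p = 0.02).

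The following sheath genes were chosen after their values were seen. Tchh, which encodes trichohyalin, the protein that hardens the sheath, had 100.8, 43.8 and 60.5 CPM in L1L2p53cKO, against 190, 834 and 361 CPM in L1L2cKO (DESeq2 adjusted p = 0.0305). Krt25, a further type I keratin of the sheath, had 94.4, 18.8 and 20.4 CPM in L1L2p53cKO, against 258, 718 and 176 CPM in L1L2cKO (DESeq2 adjusted p = 0.0473). In these genes L1L2p53cKO 1 was the highest of its group and L1L2cKO 2 the highest of the other. Krt73, a type II sheath keratin, had 63.7, 23.5 and 23.2 CPM in L1L2p53cKO, against 133, 263 and 62.2 CPM in L1L2cKO, and overlapped (DESeq2 adjusted p = 0.0127). Krt71, also a type II keratin of the sheath, had 126, 19.1 and 16.0 CPM in L1L2p53cKO, against 320, 1051 and 286 CPM in L1L2cKO, but was not called (DESeq2 adjusted p = 0.069). Padi3, a peptidylarginine deiminase that modifies trichohyalin, had a log2 fold change of -2.25, and Dsg4, a desmosomal cadherin of the hair follicle, of -2.32. Krt79, which marks the upper follicle canal, and Tgm3 and Dsc2, which the interfollicular epidermis also uses, lay between -0.19 and 0.04.

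**Figure D3:**
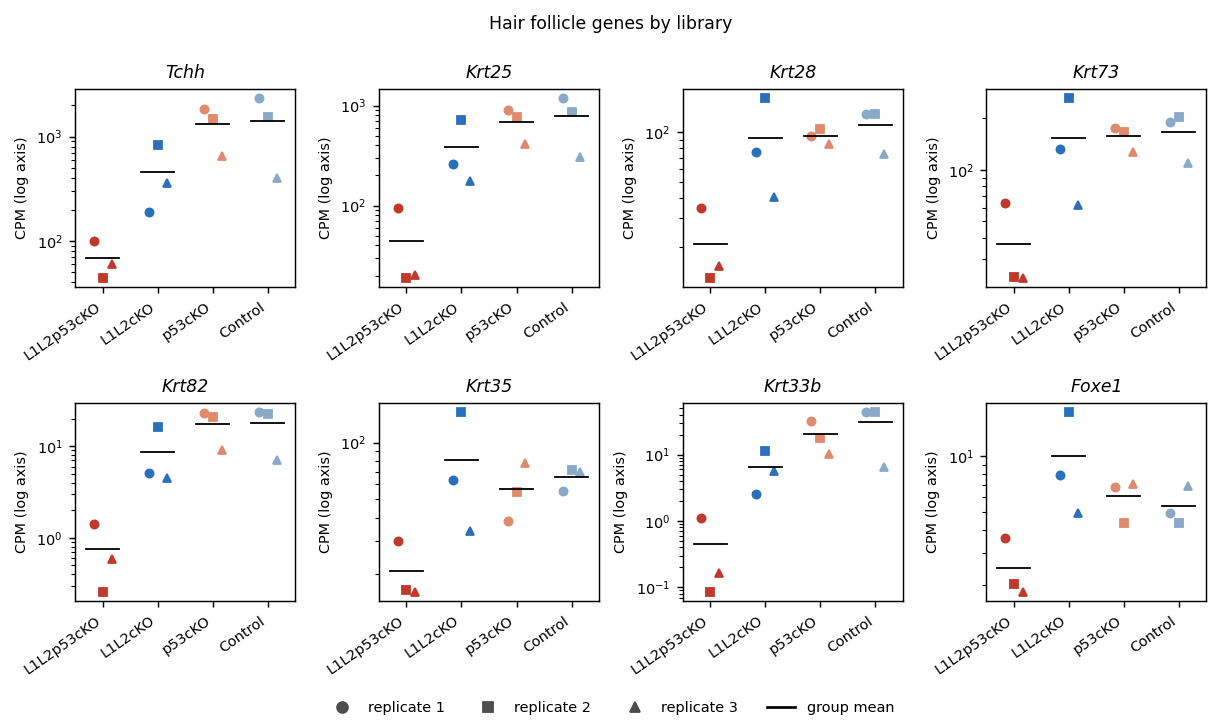
CPM on a log axis of 4 inner root sheath genes, 3 hair shaft keratins and the follicle transcription factor Foxe1 in the 12 libraries, with a point for each library and a line at the group mean. In every panel except Krt73 all 3 L1L2p53cKO libraries lie below all 3 L1L2cKO libraries, and L1L2p53cKO 1 is the highest of its group.

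Hair shaft keratins were lower as well. Of 14 listed genes 12 were tested, and 11 of these were lower, all 11 without overlap (5.13% of all genes), with a median log2 fold change of -2.68. DESeq2 called 4 of them lower, beside 0.339% of all genes (Krt82, Krt35, Krt36 and Krt33b). Krt82, a type II keratin of the hair cuticle, had 1.41, 0.256 and 0.586 CPM in L1L2p53cKO, against 5.09, 16.4 and 4.49 CPM in L1L2cKO. Its log2 fold change was -3.49 (95% interval -5.18 to -1.80, DESeq2 adjusted p = 0.000978). Krt35, a type I keratin of the matrix and early shaft, had 29.9, 16.6 and 16.1 CPM in L1L2p53cKO, against 63.2, 145.6 and 34.1 CPM in L1L2cKO. Its log2 fold change was -1.96 (DESeq2 adjusted p = 0.0103). Krt33b, a keratin of the hair cortex and chosen after its values were seen, had 1.099, 0.085 and 0.167 CPM in L1L2p53cKO, against 2.54, 11.4 and 5.73 CPM in L1L2cKO (log2 fold change -3.79, DESeq2 adjusted p = 0.0431). The exception was Krt84, with a log2 fold change of 0.54 and overlapping groups.

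Keratin-associated proteins, which cross-link the keratins of the shaft, had the lowest median of the hair lists. Of 41 listed genes 36 were tested, 35 were lower, 24 of them without overlap (5.13% of all genes), and 0 were called by edgeR or DESeq2. The median log2 fold change was -3.27, or -3.06 with 4 members that had no count in L1L2p53cKO set at a floor of 3 counts summed over that group, and 6 further members had 1 to 3 counts there. The list summed to at most 75.9 CPM in L1L2p53cKO and 224 CPM in L1L2cKO, against up to 874.5 CPM in p53cKO and 963.4 CPM in Control. The filter ran over all 4 groups, so members could be tested through their levels in p53cKO and Control. With the compared groups fitted alone 15 members were lower without overlap. Krtap16-1 had 1.18, 0 and 0.167 CPM in L1L2p53cKO, against 2.96, 13.9 and 6.17 CPM in L1L2cKO (log2 fold change -4.02). Krtap24-1 had 0.471 CPM in L1L2p53cKO 1 and 0 CPM in L1L2p53cKO 2 and 3, against 1.03, 5.10 and 1.32 CPM in L1L2cKO. Both were lower without overlap (DESeq2 adjusted p = 0.102 for Krtap16-1 and 0.126 for Krtap24-1). Krtap3-2, chosen after its values were seen as the only higher member, had 46.4, 64.9 and 47.1 CPM in L1L2p53cKO, against 30.3, 15.8 and 5.55 CPM in L1L2cKO (log2 fold change 1.61). Members of this family include near-identical copies whose reads the counting could split, so single-gene values are uncertain.

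Transcription factors of the hair matrix were less shifted than the structural genes. Of 16 tested 13 were lower, 1 of them without overlap (5.13% of all genes, so near the background), and the median log2 fold change was -0.44. That gene was Foxe1, a forkhead factor required for hair follicle shape, which DESeq2 called lower, beside 0.339% of all genes. It had 3.61, 2.05 and 1.84 CPM in L1L2p53cKO, against 7.90, 17.3 and 4.93 CPM in L1L2cKO (log2 fold change -2.003, DESeq2 adjusted p = 0.0105). Msx2, a homeobox factor of the matrix, had a log2 fold change of -1.26, Hoxc13, which activates hair keratin genes, of -0.44, and the vitamin D receptor Vdr of -0.56, all with overlapping groups. Lef1, the Wnt effector whose core motif is marked in the promoters above, was at 0.18. Foxe1, Msx2, Hoxc13, Vdr and Lef1 were chosen after their values were seen. Progenitor and signalling genes of the follicle were split 15 higher and 11 lower of 26 tested, with a median of 0.03, and Wnt pathway targets 7 higher and 9 lower of 16 tested, with a median of -0.01.

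Sebaceous gland genes were lower in L1L2p53cKO. Of 22 listed genes 21 were tested, 20 were lower, 12 of them without overlap (5.13% of all genes), and DESeq2 called 5 lower, beside 0.339% of all genes (Scd1, Fa2h, Elovl3, Hsd3b6 and Soat1), with a median log2 fold change of -0.77. Scd1, which desaturates fatty acids for sebum, had 93.1, 71.0 and 52.0 CPM in L1L2p53cKO, against 125, 264 and 163 CPM in L1L2cKO. Its log2 fold change was -1.35 (95% interval -1.95 to -0.76, DESeq2 adjusted p = 0.00395). Fa2h, the fatty acid 2-hydroxylase, had 9.81, 5.38 and 1.84 CPM in L1L2p53cKO, against 20.4, 54.3 and 25.01 CPM in L1L2cKO. Its log2 fold change was -2.54 (DESeq2 adjusted p = 0.00327), and as in Scd1 the groups did not overlap.

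The 3 other called sebaceous genes were chosen after their values were seen. Elovl3, which elongates very long chain fatty acids, had 9.42, 5.04 and 2.09 CPM in L1L2p53cKO, against 14.8, 33.4 and 16.0 CPM in L1L2cKO (log2 fold change -1.95). Soat1, which esterifies cholesterol, had 20.2, 14.6 and 11.9 CPM in L1L2p53cKO, against 21.9, 53.3 and 36.4 CPM in L1L2cKO (log2 fold change -1.25). Hsd3b6, a steroid dehydrogenase gene, had 3.77, 1.54 and 1.76 CPM in L1L2p53cKO, against 5.22, 11.3 and 6.34 CPM in L1L2cKO (log2 fold change -1.68). None of the 3 overlapped between the groups. Cidea, a lipid droplet protein gene, was at -1.20 and Awat2, a wax synthase gene, at -0.95, both without overlap and not called. Dgat2, which completes triglyceride synthesis, was level at 0.05.

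Genes of cholesterol and fatty acid synthesis were lower by less. Of 25 tested 23 were lower, 4 of them without overlap (5.13% of all genes), and 0 were called, with a median of -0.31. Among the 4 was Fasn, named after its values were seen. Without L1L2p53cKO 1 the median was -0.45 and 17 members were lower without overlap. Over all genes the number lower without overlap also rose in that setting, from 748 to 1699. Fasn, fatty acid synthase, had 319, 276 and 261 CPM in L1L2p53cKO, against 347, 339 and 402 CPM in L1L2cKO.

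**Figure D4:**
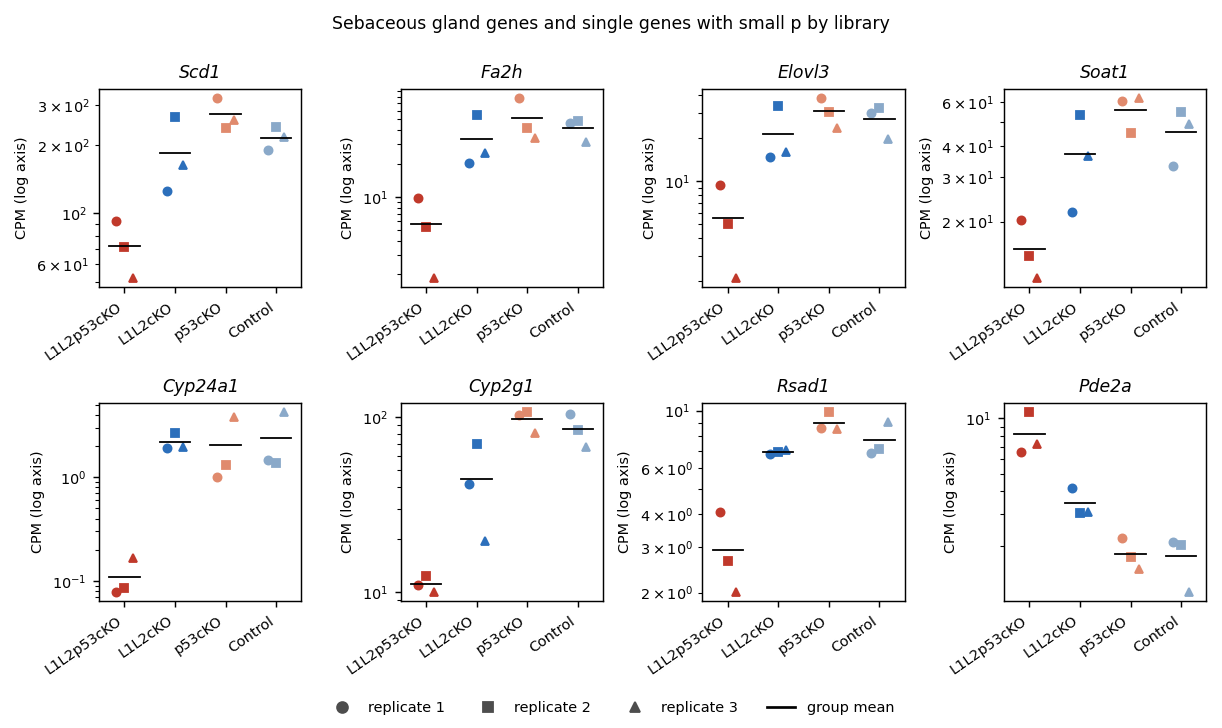
CPM on a log axis of 4 sebaceous gland genes and of the single genes Cyp24a1, Cyp2g1, Rsad1 and Pde2a in the 12 libraries, with a point for each library and a line at the group mean. L1L2p53cKO lies below L1L2cKO without overlap in all panels but that of Pde2a, where it lies above.

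Outside these lists the lower gene with the smallest edgeR p was Cyp24a1, the mitochondrial enzyme that degrades active vitamin D. It had 0.078, 0.085 and 0.167 CPM in L1L2p53cKO, against 1.92, 2.70 and 1.94 CPM in L1L2cKO, and the groups did not overlap. These are 4 counts in all 3 L1L2p53cKO libraries and 87 counts in L1L2cKO. The log2 fold change was -4.19 (95% interval -5.87 to -2.50, DESeq2 adjusted p = 0.00552), at a level of about 2 CPM, and Cyp24a1 overlaps another annotated gene. Without p53cKO 3 and Control 3, which had the highest Cyp24a1 of their groups at 3.84 and 4.27 CPM, edgeR called it lower (adjusted p = 0.0257), as it did with a replicate block in p53cKO and Control (adjusted p = 0.0161).

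Cyp2g1, a cytochrome P450 gene, had 10.99, 12.4 and 9.96 CPM in L1L2p53cKO, against 41.7, 70.7 and 19.6 CPM in L1L2cKO. It had the smallest DESeq2 adjusted p, at 0.000586, and a log2 fold change of -1.99 (95% interval -2.80 to -1.17). Rsad1, which encodes a radical S-adenosyl methionine domain protein, had 4.08, 2.65 and 2.01 CPM in L1L2p53cKO, against 6.80, 6.93 and 7.05 CPM in L1L2cKO (DESeq2 adjusted p = 0.00395). Its L1L2cKO libraries were nearly level, and L1L2p53cKO 1 was again the highest of its group. Fbp1, the gluconeogenic fructose bisphosphatase, had 3.30, 1.45 and 2.01 CPM in L1L2p53cKO, against 7.70, 20.3 and 6.17 CPM in L1L2cKO (DESeq2 adjusted p = 0.00395). Fndc1, Lrrc75b and Crlf3 were called lower as well, with log2 fold changes of -1.998, -2.58 and -0.56. Crlf3, the smallest of these changes, had 21.2, 20.0 and 19.4 CPM in L1L2p53cKO, against 30.7, 31.3 and 27.5 CPM in L1L2cKO, with little spread in either group.

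Among higher genes DESeq2 called Pde2a, a cyclic nucleotide phosphodiesterase gene, and 3 genes with clone or predicted names. Pde2a had 6.59, 10.8 and 7.28 CPM in L1L2p53cKO, against 4.19, 3.06 and 3.08 CPM in L1L2cKO. Its log2 fold change was 1.25 (95% interval 0.61 to 1.89, DESeq2 adjusted p = 0.0397), and it overlaps other annotated genes. Ankrd55, an ankyrin repeat gene, had 11.1, 13.8 and 13.7 CPM in L1L2p53cKO, against 7.42, 5.10 and 6.52 CPM in L1L2cKO, and was not called (log2 fold change 1.02, DESeq2 adjusted p = 0.074). Ndufa4l2, a hypoxia-induced mitochondrial protein gene, had 96.0, 161 and 178 CPM in L1L2p53cKO, against 77.6, 72.3 and 86.3 CPM in L1L2cKO. It was higher without overlap (log2 fold change 0.88, not called). Hpgds (0.55), Fam162a (0.52), Ppp1r14b (0.35) and Snx1 (0.33) were also higher without overlap and not called. Of these genes Ankrd55, Ndufa4l2, Hpgds, Fam162a and Ppp1r14b overlap other annotated genes, so their counts are uncertain.

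**Figure D5:**
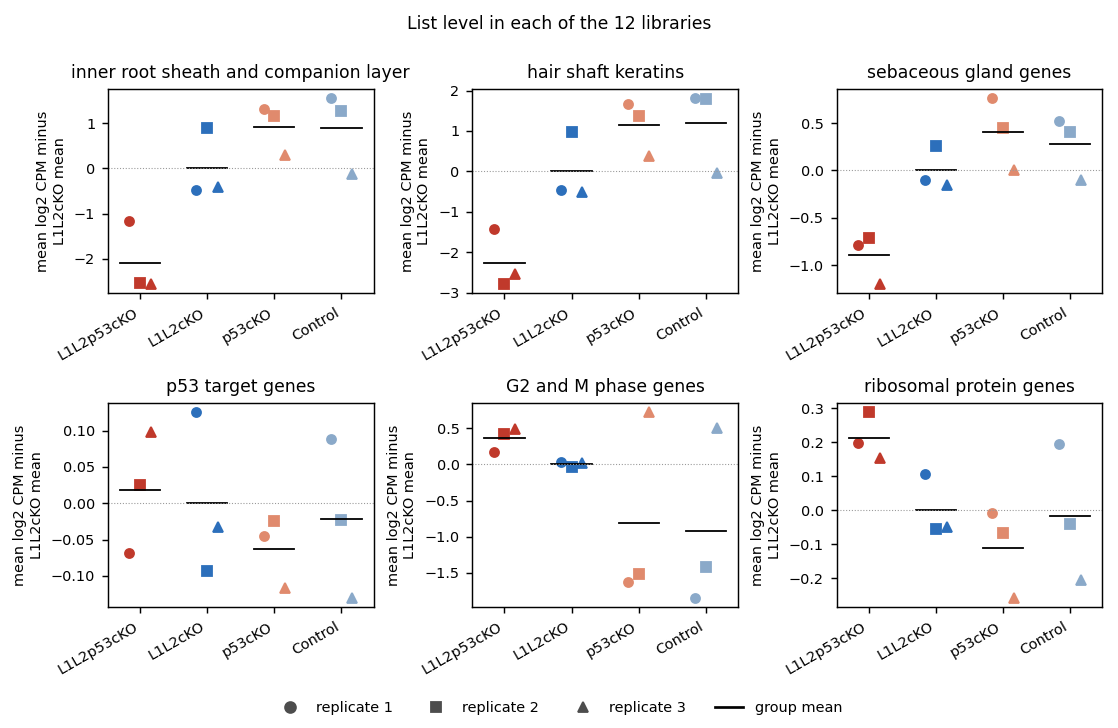
Mean log2 CPM over the tested members of 6 gene lists in each library, minus the mean of the 3 L1L2cKO libraries, with a point for each library and a line at the group mean. Inner root sheath, hair shaft and sebaceous lists lie lowest in L1L2p53cKO, p53 targets overlap, and for G2 and M phase genes p53cKO 3 and Control 3 lie far above the rest of their groups.

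All 30 tested G2 and M phase genes had a fold change above 0. The groups did not overlap for 19 of them (5.84% of all genes were higher without overlap), 0 were called by edgeR or DESeq2, and the median log2 fold change was 0.40. Kif23, a kinesin of the midbody, had 59.9, 65.5 and 70.6 CPM in L1L2p53cKO, against 45.9, 47.5 and 46.6 CPM in L1L2cKO. The groups did not overlap, but the interval of the log2 fold change of 0.48 was wide, at -0.53 to 1.499. Across the other libraries Kif23 was 69.9 CPM in p53cKO 3 and 58.1 CPM in Control 3, against 19.8 to 24.1 CPM in the remaining 4. Cdc20, an activator of the anaphase-promoting complex, had 69.3, 93.7 and 67.8 CPM in L1L2p53cKO, against 65.3, 48.2 and 53.1 CPM in L1L2cKO (log2 fold change 0.47). All 30 listed G2 and M genes were also higher in p53cKO against Control, with a median of 0.16. That median was -1.142 without p53cKO 3 alone, and -0.007 with Control 3 left out as well. S phase and replication genes had 17 higher and 10 lower members of 27 tested, 0 without overlap, and a median of 0.04.

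Ribosomal protein genes were higher by a small amount. Of 30 tested 29 were higher, 22 of them without overlap (5.84% of all genes), 0 were called by edgeR or DESeq2, and the median log2 fold change was 0.235. Rpl22 had 417, 426 and 455 CPM in L1L2p53cKO, against 387, 348 and 364 CPM in L1L2cKO (log2 fold change 0.24). Rpl5, whose protein binds MDM2, had 470, 462 and 448 CPM in L1L2p53cKO, against 401, 370 and 355 CPM in L1L2cKO (log2 fold change 0.29). Neither was called, and ribosomal protein genes have many near-identical pseudogenes, so single-gene values are uncertain. Of 24 tested glycolysis and hypoxia genes 20 were higher, 5 of them without overlap (Slc2a1, Gpi1, Gapdh, Pgk1 and Pkm, named after their values were seen), with a median of 0.14 and 0 called. Pgk1, phosphoglycerate kinase, had 45.3, 59.4 and 67.8 CPM in L1L2p53cKO, against 36.6, 33.4 and 43.0 CPM in L1L2cKO.

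The layers of the interfollicular epidermis differed little in their list medians. Of 18 tested basal keratinocyte genes 14 were higher, 1 of them without overlap (5.84% of all genes, so near the background), with a median of 0.16. Summed, they reached 19620 to 23920 CPM in L1L2p53cKO, above the 17540 to 19430 CPM in L1L2cKO. Krt5 and Krt14, the basal keratin pair, had log2 fold changes of 0.25 and 0.28 with overlapping groups. Spinous and granular genes were split 13 higher and 13 lower of 26 tested, with a median of -0.00337. Late cornified envelope and SPRR genes were split 12 higher and 13 lower of 25 tested, with a median of -0.00456. Acylceramide and lipid envelope genes were split 7 higher and 11 lower of 18 tested, with a median of -0.01. Fa2h, also in the sebaceous gland list, was the 1 acylceramide member that DESeq2 called lower, beside 0.339% of all genes. Of 26 tested polarity complex genes 8 were higher and 18 lower, 2 and 2 of them without overlap (5.84% and 5.13% of all genes, so near the background), with a median of -0.07. Of 11 tested Notch pathway genes 9 were lower, Notch1 and its ligand gene Jag1 (-0.39, named after its values were seen) without overlap, with a median of -0.22.

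Marker sums of other cell types were set beside the follicle and gland results. In bulk tissue fewer cells of a type and less RNA per cell cannot be told apart. Inner root sheath markers (Tchh, Krt25, Krt27 and Krt71) summed to 94.5 to 371 CPM in L1L2p53cKO and 883 to 2960 CPM in L1L2cKO, while spinous and granular markers (Krt1, Krt10, Ivl, Lor, Flg and Tgm1) summed to 65200 to 103000 CPM in L1L2p53cKO and 53100 to 104000 CPM in L1L2cKO. Markers of cells beneath the epidermis were examined as well. Of 10 adipocyte markers 3 were tested, all 3 were lower without overlap (5.13% of all genes), and the sum of Adipoq, Fabp4, Retn and Plin1 was 0.335 to 0.769 CPM in L1L2p53cKO and 1.67 to 3.57 CPM in L1L2cKO. Fabp4, a fatty acid carrier, had 0.157, 0.512 and 0.167 CPM in L1L2p53cKO, against 0.756, 2.26 and 1.32 CPM in L1L2cKO, and Plin4, a lipid droplet coat protein, had a log2 fold change of -2.39, neither of them called. With L1L2p53cKO and L1L2cKO fitted alone no adipocyte marker passed the filter, so these 3 were tested only through their levels in p53cKO and Control. Dermal papilla markers were lower in 6 of 8 tested, 0 without overlap, with a median of -0.735.

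Fibroblast markers were not lower, with a sum of 158 to 210 CPM in L1L2p53cKO and 110 to 194 CPM in L1L2cKO. The longer fibroblast and dermal matrix list summed to 1027 to 1218 CPM in L1L2p53cKO, above the 814.9 to 911.7 CPM in L1L2cKO. Of its 14 tested members 8 were higher and 6 lower, with a median of 0.14. Of 12 tested melanocyte markers, which include hair pigment genes, 11 were lower, 1 of them without overlap (5.13% of all genes), with a median of -0.38. Of 13 tested T cell markers 11 were higher, 1 without overlap (5.84% of all genes), with a median of 0.29. Their mean log2 CPM relative to L1L2cKO was 0.98 in L1L2p53cKO 1, against -0.30 and -0.70 in L1L2p53cKO 2 and 3, so the higher level lay in L1L2p53cKO 1. Of 19 tested Langerhans cell and macrophage markers 14 were higher, 3 without overlap (5.84% of all genes), with a median of 0.18. The mean log2 CPM of this list relative to L1L2cKO was 0.42 in L1L2p53cKO 1, against 0.12 and -0.07 in L1L2p53cKO 2 and 3. Of 6 tested endothelial and mural markers 4 were lower, 0 without overlap, with a median of -0.54. Of 2 tested erythroid markers 1 was higher (log2 fold change 0.664). The other, Slc4a1, which encodes the band 3 anion exchanger, was called lower (DESeq2 adjusted p = 0.029). Slc4a1 had 0.078 CPM in L1L2p53cKO 1 and 0 CPM in L1L2p53cKO 2 and 3, against 0.481, 3.57 and 0.528 CPM in L1L2cKO. Summed Hba-a1, Hbb-bs and Alas2 overlapped, at 0.854 to 2.34 CPM in L1L2p53cKO and 0.705 to 1.86 CPM in L1L2cKO. No other marker of these lists was called, and no fixed marker set had a marker at 0 in all 6 libraries. The part of these cell types in the hair and sebaceous results was not tested.

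Within L1L2p53cKO the follicle lists were uneven. Relative to the L1L2cKO mean, the mean log2 CPM of inner root sheath genes was -1.17 in L1L2p53cKO 1, -2.52 in L1L2p53cKO 2 and -2.55 in L1L2p53cKO 3. In L1L2cKO it was 0.89 in replicate 2, against -0.47 and -0.41 in replicates 1 and 3. The L1L2p53cKO library with the most Trp53 thus also had the most sheath transcript, and the part of Trp53 level and of sex in this was not tested. Without L1L2p53cKO 1 the medians of hair shaft keratins, inner root sheath genes and keratin-associated proteins were -3.51, -2.78 and -5.41. Without L1L2cKO 2 those of hair shaft keratins and inner root sheath genes were -1.749 and -1.405.

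The same Trp53 allele without floxed Llgl genes was compared next, in p53cKO against Control, which shares no library with the comparison above. Trp53 itself had a log2 fold change of -0.61 there too, or -0.98 without p53cKO 3. edgeR called 0 genes in p53cKO against Control (63 at an unadjusted p below 0.05), and DESeq2 called 0. The median log2 fold changes were -0.09 for inner root sheath genes, -0.13 for hair shaft keratins, -0.24 for keratin-associated proteins, 0.12 for sebaceous gland genes and -0.04 for p53 targets. Without p53cKO 3 alone the medians of the 3 hair lists turned to 0.198, 0.223 and 0.253 in that order, and that of sebaceous gland genes was 0.264. With Control 3, which stood apart as well, also left out, the hair medians did not turn, at -0.213, -0.23 and -0.297. The sebaceous median was then 0.14. A replicate block in p53cKO and Control left 0 genes called in this comparison and in the difference tested next. Inner root sheath markers summed to 1986 to 5224 CPM in p53cKO and 1322 to 6547 CPM in Control and so lay above the L1L2p53cKO libraries in every library of both groups.

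The difference between the Trp53 effects was tested gene by gene. edgeR called 0 genes (428 at an unadjusted p below 0.05), and so did DESeq2. The median difference of the log2 fold changes was -2.14 for inner root sheath genes, -2.76 for hair shaft keratins and -0.82 for sebaceous gland genes, against 0.00487 over all genes. For Krt28 the difference was -1.93 (95% interval -3.42 to -0.44), for Scd1 -1.69 (-2.53 to -0.86) and for Cyp2g1 -2.17 (-3.28 to -1.06). These intervals lie below 0 but are not adjusted for the number of genes, and the adjusted p of each was 1.0. Krt28, Scd1 and Cyp2g1 were also named for a small p in L1L2p53cKO against L1L2cKO. That comparison is part of this difference, so their intervals are no separate support for it. For Trp53 the difference was -0.0041 (-0.72 to 0.72), for Sat2 -0.08 (-1.36 to 1.19) and for Cdkn1a 0.01 (-0.73 to 0.75). With p53cKO 3 and Control 3 left out 0 differences were called as well, with a smallest adjusted p of 0.209.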

How the data were processed

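Total RNA of newborn epidermis was made into stranded mRNA libraries (TruSeq), per the labels' protocols. Reads were aligned to GRCm38 with STAR and counted with featureCounts 1.6.4, per the submitters' processing notes. The annotation release and the strand setting are not given in the sources used here. The deposited values are raw counts per gene for 46078 identifiers, and 45229 of these matched a gene position in GENCODE M21. The 14582 genes that passed edgeR's filterByExpr (minimum count 10) were fitted with edgeR 4.0.16 (quasi-likelihood, robust, TMM scaling, 4 group means, 12 libraries) and adjusted over all genes by the Benjamini-Hochberg method. DESeq2 1.42.0 was the alternative tool, run in R 4.3.3. The procedure was tested on simulated data. CPM use TMM-scaled library sizes, and log2 CPM a prior count of 2. Depth was 6738720 to 14509507 counts per library.

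The gene lists and members were chosen with earlier results of these data known. Named genes were Trp53, Llgl1 and Llgl2, up to 8 genes per direction with the smallest p and no overlap between groups, 8 p53 targets with the smallest p and 6 fixed targets, and 2 genes from each list with at least 1 in 4 members (and 3) without overlap. Other genes named are DESeq2 calls or were picked outside these rules with their values known. Not all of the latter are marked at their place, among them Trp63, Trp73, Krt84, Krt79, Tgm3, Dsc2, Cidea, Awat2, Dgat2, Krt5 and Krt14. The labels give 3 libraries per group without saying that each came from a separate litter, so p-values measure the spread between these libraries. Between p53cKO and Control the deviations of same-numbered libraries correlated at 0.619, 0.207 and 0.824. Differently numbered libraries were not compared, and replicate 3 stood apart in both groups, so these values do not show that the numbers pair samples. No label says that they do. A fit with a replicate block in these groups was added.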

Additional observations from a re-analysis of the deposited data

How the results depend on the processing

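edgeR called 0 genes in L1L2p53cKO against L1L2cKO under every scaling and filter tried, with sex as a term and with a replicate block over all groups, and 0 to 1 with a library left out. The calls were BC002163 without L1L2p53cKO 3, Cyp2g1 without L1L2cKO 3 and, with Control 3 and p53cKO 3 both left out, Cyp24a1 (1 gene). A replicate block in p53cKO and Control only also gave 1 call, Cyp24a1. DESeq2 called 51, of which 4 were hair shaft keratins, 7 inner root sheath genes and 5 sebaceous gland genes. Its count was 1 to 169 with a library of the compared groups left out, 216 with both female libraries left out, 140 without Control 3 and p53cKO 3 and 64 with the compared groups alone. In p53cKO against Control edgeR called 0 to 1 genes with a library left out and 1 without Control 3 and p53cKO 3. The count of genes at an unadjusted p below 0.05 was 407 to 1049 with a library left out 1206 with both female libraries left out and 1198 with the block in p53cKO and Control only.

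With a library left out the median log2 fold change was -3.51 to -1.749 for hair shaft keratins, -2.777 to -1.405 for inner root sheath genes and -5.413 to -2.502 for keratin-associated proteins. With both female libraries left out the medians were -3.886, -3.068 and -5.722, 0.531 for G2 and M phase genes and 0.157 for p53 targets. With the compared groups alone 15 keratin-associated proteins had no overlap, and the adipocyte list had no tested member. These leave-outs of several libraries, those of DESeq2 and the block in p53cKO and Control only were chosen after seeing the data.

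Fold changes near 0 changed sign. Llgl2 was -0.001 with sex as a term, -0.002 with a replicate block and -0.34 to 0.221 with a library left out. With a library left out Trp53inp1 was -0.561 to 0.855, Zmat3 -0.189 to 0.111, Ccng1 -0.184 to 0.076, Phlda3 -0.004 to 0.084 and Cdkn1a -0.196 to 0.117. With both female libraries left out Zmat3 was 0.004, Ccng1 0.161 and Cdkn1a 0.194. The cause was not tested. The replicate block over all groups left 0 genes called. Deviations of same-numbered libraries correlated at -0.173, -0.345 and 0.0298 between L1L2p53cKO and L1L2cKO, which the numbers thus do not pair. The block in p53cKO and Control only changed no other call. DESeq2 brought 14 of 46 named genes past the threshold, and no other named gene changed sign. Depth limited the keratin-associated proteins, of which 4 had no count in L1L2p53cKO.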

Other observations

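Over all genes 5.84% were higher and 5.13% lower without overlap, so a few such members occur in most lists. The genes below were chosen after their values were seen, and those of the EGFR and kallikrein lists were not called by edgeR or DESeq2. Among EGFR ligands and receptors 3 ligand genes were lower without overlap of 13 tested. Tgfa had 31.6, 38.7 and 29.1 CPM in L1L2p53cKO, against 60.7, 50.1 and 39.8 CPM in L1L2cKO (log2 fold change -0.60), and Ereg and Epgn were at -0.89 and -0.57. Of 17 tested kallikreins and desquamation inhibitors 4 were lower without overlap. Klk10, a serine protease of the cornified layer, had 68.8, 70.0 and 65.6 CPM in L1L2p53cKO, against 108.2, 108.5 and 109.1 CPM in L1L2cKO (log2 fold change -0.67). Klk6 was at -0.93, St14 (matriptase) at -0.42 and Cst6 (cystatin M/E) at -0.53.

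Egr3 and Id4, from other lists, had small edgeR p without being called. Egr3, an immediate early transcription factor gene, had 81.1, 107 and 90.2 CPM in L1L2p53cKO, against 127, 135 and 146 CPM in L1L2cKO (log2 fold change -0.55). Id4, an inhibitor of basic helix-loop-helix factors and a BMP target, had 32.5, 34.7 and 22.7 CPM in L1L2p53cKO, against 48.8, 45.7 and 72.0 CPM in L1L2cKO (log2 fold change -0.89). Outside the lists, Wnt5a, a noncanonical Wnt ligand called by DESeq2 (adjusted p = 0.0379), had 6.59, 1.96 and 4.94 CPM in L1L2p53cKO, against 12.4, 33.7 and 6.96 CPM in L1L2cKO. Bmp8a, Aldh1a3 (which makes retinoic acid) and S100a7a were also called lower by DESeq2, with log2 fold changes of -2.97, -2.82 and -3.66.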
